A study of Mus musculus with 3 samples.

Results

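Krüppel-like factors (KLFs) are transcription factors that bind CACCC and GC-rich sites through zinc fingers at their C-terminal end. The 9 genes described here (Klf2, Klf3, Klf4, Klf6, Klf7, Klf9, Klf10, Klf13 and Klf16) were taken by name from the 37646 genes of each count table. RNA was sequenced from B220+GFP+ cells sorted from the spleens of moribund pBIC2 mice, a model of aggressive B cell lymphoma that carries the combined alleles given below. The 3 libraries form 1 group on a C57BL/6 background, and the normal germinal centre B cells that the study names as controls were not analysed here.

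All 3 lymphomas share 1 genotype: floxed Trp53 (p53F/F) and floxed Prdm1 (Blimp1F/F), an IKK2 kinase that is constitutively active once its stop cassette is removed (IKK2castopF/stopF), Cre expressed from the Cγ1 locus (Cg1Cre/+) and a human BCL2 transgene under the Eµ enhancer (Eµ-hBCL2tg/+). Cγ1-driven Cre acts in B cells that have begun to transcribe the Ighg1 locus, and GFP marks the sorted lymphoma cells. The labels do not give the age of the mice, nor do they say that each library came from its own mouse. The libraries are called tumours 1, 2 and 3, and these numbers carry no order. Each was measured once, so every SD below is the spread between 3 libraries and may be technical in part.

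The family is usually divided by the cofactors its proteins bind. Klf2, Klf4, Klf6 and Klf7 belong to the group that can recruit histone acetyltransferases, Klf3 to the group that recruits the corepressor CtBP, and Klf9, Klf10, Klf13 and Klf16 to the group that recruits the corepressor SIN3A. In lymphocytes KLF2 is best known for maintaining quiescence and for controlling the genes of migration, and KLF4 and KLF9 have been linked to restraint of B cell proliferation.

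RefSeq promoter sequences (GRCm38, matched by symbol) were found for 7 of the 9 members, all but Klf10 and Klf16. The 4 printed here belong to Klf2, the most abundant member, and to Klf4, Klf9 and Klf13, 3 of the 4 members that varied most between tumours. These are also the only 4 of the 7 with a match to TGACG, a motif marked below. Klf3 varied more than Klf9 but had no match to any of the marked motifs, and its promoter is not printed. The printed sequences run 5′ to 3′ on the gene's strand and end at the gene's start, with any base that GENCODE places inside the gene left out. Capitals mark 3 motifs, each searched on both strands: the cyclic AMP response core TGACG, the AP-1 site TGANTCA and the MEF2 core, which is CTA and TAG with any 4 bases between them.
Klf2 promoter, chr8:72318812-72319032, plus strand: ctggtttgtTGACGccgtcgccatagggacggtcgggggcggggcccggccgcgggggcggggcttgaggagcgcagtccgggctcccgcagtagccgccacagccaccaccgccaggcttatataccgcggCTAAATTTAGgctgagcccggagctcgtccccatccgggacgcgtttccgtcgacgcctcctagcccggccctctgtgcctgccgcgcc
Klf4 promoter, chr4:55532476-55532725, minus strand: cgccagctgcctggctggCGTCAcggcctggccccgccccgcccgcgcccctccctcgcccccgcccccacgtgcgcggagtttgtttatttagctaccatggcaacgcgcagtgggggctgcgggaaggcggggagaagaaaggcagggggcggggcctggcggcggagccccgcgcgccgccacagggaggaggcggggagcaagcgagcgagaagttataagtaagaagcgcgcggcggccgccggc
Klf9 promoter, chr19:23140976-23141225, plus strand: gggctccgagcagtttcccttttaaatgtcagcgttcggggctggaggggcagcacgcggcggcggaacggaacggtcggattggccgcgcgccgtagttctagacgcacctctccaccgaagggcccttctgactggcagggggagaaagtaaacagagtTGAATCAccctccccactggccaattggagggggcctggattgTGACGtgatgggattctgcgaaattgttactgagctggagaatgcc
Klf13 promoter, chr7:63938916-63939165, minus strand: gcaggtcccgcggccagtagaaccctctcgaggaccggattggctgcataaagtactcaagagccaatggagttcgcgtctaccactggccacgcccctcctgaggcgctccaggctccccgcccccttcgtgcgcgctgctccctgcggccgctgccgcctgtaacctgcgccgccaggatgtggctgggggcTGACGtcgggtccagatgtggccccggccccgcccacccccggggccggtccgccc

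Over the 250 bases before the RefSeq start, TGACG was present in 4 of the 7 promoters (Klf2, Klf4, Klf9 and Klf13), against 17.9% of 27025 promoters of the same length. The MEF2 core stood in the Klf2 promoter alone among the 7, 108 bases before the start, against 3.23% of all promoters. MEF2 factors, downstream of the kinase ERK5, are known activators of Klf2. The loose AP-1 letters were found in the Klf9 promoter, as TGAATCA, and in 6.87% of all promoters. The GC box GGGCGG, a site that KLF and SP proteins can bind, was in 6 of 7 (32.9% of all promoters), CACCC in 5 of 7 (51.3%) and the NF-κB letters, GGG and CC with any 5 bases between them, in 5 of 7 (45.4%). TATAAA (13% of all promoters) and the glucocorticoid response element (0.381%) had no match in the 7. The promoters of Klf2, Klf3, Klf4 and Klf13 were over 70% G and C (71.2%, 78.4%, 74% and 71.6%), against a median of 52% over all promoters. These counts use the full 250 bases, also where GENCODE starts the gene earlier than RefSeq. For Klf7 all 250 bases lie inside the GENCODE gene, and for Klf3 133 of them do. A match describes letters in this window, and GC-rich motifs are more frequent in GC-rich sequence.

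The lymphomas expressed KLFs at very unequal levels. Klf2 led the family at 757 ± 96.6 CPM (counts scaled to TMM-normalised library size, SD, n = 3), and Klf6 followed at 355 ± 31.4 CPM. Klf13 was at 126 ± 88.1 CPM and Klf3 at 92.1 ± 60.9 CPM, and the other 5 members averaged between 10.6 and 48.2 CPM. At 10 CPM or more in every tumour were 7 of 9 members, against 30.3% of the 25463 genes with a count and 68.5% of 11273 genes passing edgeR's filterByExpr. All 9 passed that filter, which asks for about 10 counts in every library. The exceptions at 10 CPM were Klf4 and Klf9.

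**Figure D1:**
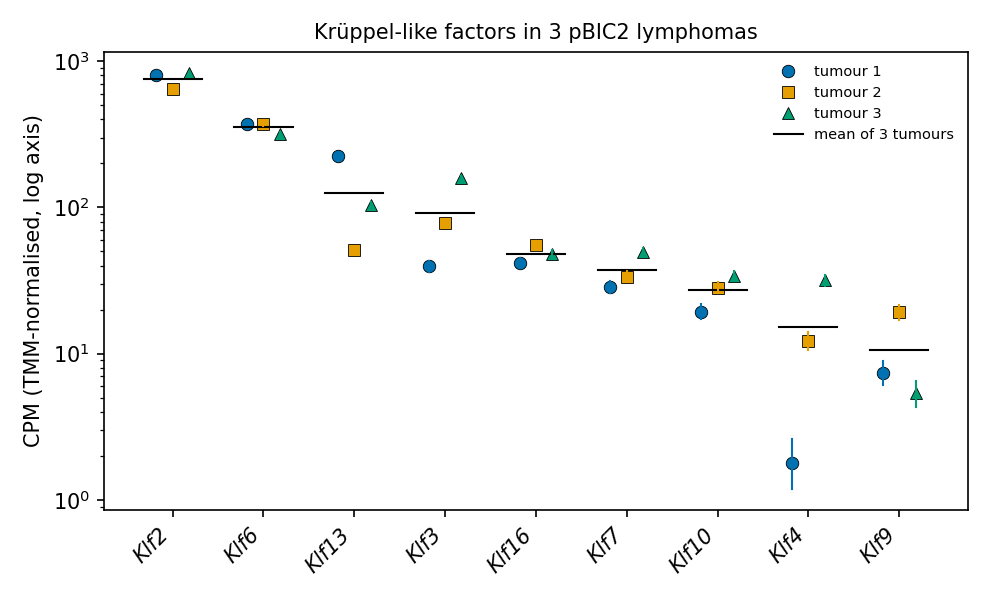
TMM-normalised CPM on a log axis for the 9 Krüppel-like factors, ordered by mean level, with 1 point per tumour, a black bar at the mean of 3 tumours and thin vertical lines for exact 95% Poisson intervals of the counts. Klf2 and Klf6 lie high with little spread, while Klf4 runs between 1.79 CPM in tumour 1 and 31.8 CPM in tumour 3.

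Depth was 15576975 to 17014022 counts per library, at which 3 counts correspond to 0.169 to 0.199 CPM. All 12 pan B cell markers reached 10 CPM throughout, led by Cd74 and Ms4a1 among those reported here. Other cell types were not equally absent. The summed level of 10 T cell genes was 129, 288 and 1189 CPM in tumours 1, 2 and 3, led by Cd2, Cd8a and Thy1, and Cd3e had no count in tumour 1 and 57.7 CPM in tumour 3. In the T cell sum, Cd5 (named after its values were seen) held 82.0 CPM in tumour 1, and Cd2 held 213 CPM in tumour 2. The sum of 10 macrophage and monocyte genes was 40.3, 410 and 185 CPM, led by Cd68, Lyz2 and Csf1r. Cd68 made up most of it (24.8, 325 and 162 CPM), while Lyz2 reached at most 32.7 CPM and Csf1r 15.6 CPM. Summed neutrophil genes reached at most 42.9 CPM, erythroid genes 20.2 CPM and NK cell genes 48.3 CPM, with Ncr1 at no count. Of 9 endothelial and stromal genes, Tek and Dcn had no count, Kdr had at most 0.113 CPM and Cdh5 at most 2.59 CPM, while Pecam1, which B cells also express, made up most of the sum. The part of these cells in the values below was not tested, and bulk RNA cannot tell fewer cells of a type from less RNA per cell.

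Klf2 varied little between the lymphomas. Its gene (ENSMUSG00000055148.7, mm10 chromosome 8, 72319033 to 72321656) had 800, 646 and 824 CPM in tumours 1, 2 and 3. Tumour 2 was lowest, outside the counting intervals of the others (634 to 659 CPM against 786 to 815 and 811 to 838 CPM). The highest tumour exceeded the lowest 1.28-fold, and the SD of log2 CPM was 0.19, lower than in all but 17.1% of genes passing the filter. Per kilobase of exon, Klf2 had 410 ± 52.3 RPKM, above 99.7% of genes with a count. Of all counts on 17 KLF genes, its share was 50.2% in tumour 1, with a 95% Wilson interval of 49.6 to 50.9. The share was 46.8% (46.1 to 47.4) in tumour 2 and 50.9% (50.3 to 51.5) in tumour 3. Per length its share of the family was larger, at 73.4%, 69.3% and 74.4% of summed RPKM.

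Klf6, a ubiquitous factor of the same group that is induced quickly by stimulation, was the steadiest member. It had 374, 372 and 319 CPM in tumours 1, 2 and 3 (1.17-fold between highest and lowest), and tumours 1 and 2 overlapped in their counting intervals. Its SD of log2 CPM was 0.13, and 8.87% of genes passing the filter had a lower one. With DESeq2 size factors or total counts, Klf6 was highest in another tumour than tumour 1. The gene (ENSMUSG00000000078.7) lies on chromosome 13, 5861482 to 5870394, and reached 80.9 ± 7.15 RPKM.

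Klf4 differed most between the lymphomas. It had 27, 199 and 564 counts in tumours 1, 2 and 3, which correspond to 1.79, 12.2 and 31.8 CPM with counting intervals that did not overlap (1.18 to 2.60, 10.6 to 14.0 and 29.2 to 34.5 CPM). Tumour 1 was far below the others and tumour 3 was 17.8-fold above it. Without tumour 1 the fold was 2.60, and without tumour 3 it was 6.78. The SD of log2 CPM, 2.07, exceeded that of 98.1% of genes passing the filter. The gene (ENSMUSG00000003032.8) lies on chromosome 4, 55527143 to 55532466. Klf4 is also a gene of monocytes and of endothelium. The macrophage and monocyte genes summed to 40.3, 410 and 185 CPM in tumours 1, 2 and 3, highest in tumour 2, though Adgre1 was highest in tumour 3 (2.71 CPM). Several other sums rose from tumour 1 to tumour 3 as Klf4 did. These were the neutrophil genes (0.199, 17.04 and 42.9 CPM), the T cell genes (129, 288 and 1189 CPM) and the NK cell genes (1.86, 2.45 and 48.3 CPM). The erythroid genes were instead highest in tumour 2 (20.2 CPM). The endothelial and stromal genes summed to 162, 179 and 320 CPM, also highest in tumour 3. Pecam1, which B cells also express, made up most of that sum. Pecam1, Cdh5 and Kdr (at most 0.113 CPM) were each lowest in tumour 1 and highest in tumour 3, and Col3a1 and Pdgfrb had counts in tumour 3 alone. Col1a1 was instead highest in tumour 1 (8.42 CPM) and Col1a2 in tumour 2 (0.307 CPM). The collagen genes and Pdgfrb were named after their values were seen. The part of these cells in the Klf4 values was not tested.

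Klf7, studied mainly in neurons and as a regulator of differentiation, had 28.6, 33.6 and 49.5 CPM (1.73-fold). Tumour 3 was high, outside the counting intervals of the other tumours, which overlapped each other. The Klf7 gene (ENSMUSG00000025959.13, chromosome 1, 64029447 to 64122282) shares 3196 exonic bases with Gm26649 on the opposite strand, a gene not listed in the tables. Since the strand setting of the counting is not given in the sources used here, reads of the 2 cannot be told apart.

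Klf3, the CtBP-binding repressor, had 39.4, 78.2 and 159 CPM in tumours 1, 2 and 3. The counting intervals were separate, and tumour 3 was 4.03-fold above tumour 1. The fold was 1.97 without tumour 3 and 2.03 without tumour 1. CtBP itself came from Ctbp1, at 282, 201 and 231 CPM, while Ctbp2 averaged 0.232 CPM. Klf8 and Klf12, the other genes of the CtBP-binding group, did not share this pattern: Klf8 had 7.49, 7.36 and 2.87 CPM, and Klf12 had 5.77, 25.6 and 7.95 CPM. Klf3 (ENSMUSG00000029178.14) lies on chromosome 5, 64803388 to 64832901. It overlaps 404 exonic bases of the opposite-strand gene Gm20033, which had 15 to 23 counts per tumour.

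The SIN3A-binding members varied in different directions. Klf13, known in T cells as an activator of the chemokine gene Ccl5, had 223, 50.8 and 104 CPM in tumours 1, 2 and 3. Tumour 1 was highest and tumour 2 lowest, 4.39-fold apart, with separate counting intervals. The fold was 2.05 without tumour 1 and 2.08 without tumour 2. Klf9, a target of the glucocorticoid receptor in many tissues, was instead highest in tumour 2, with 7.42, 19.1 and 5.35 CPM (3.57-fold, and 1.35-fold without tumour 2). The counting intervals of tumours 1 and 3 overlapped for Klf9 (6.11 to 8.93 and 4.33 to 6.55 CPM). The summed macrophage and monocyte genes, mostly Cd68, were also highest in tumour 2, and the part of these cells in the Klf9 value was not tested.

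Klf10, an early response gene of TGF-β, had 19.4, 28.3 and 33.9 CPM (1.75-fold), lowest in tumour 1, with intervals of tumours 2 and 3 that were only just separate (25.8 to 31.0 and 31.2 to 36.7 CPM). Klf16, the least studied of the group, had 41.9, 55 and 47.8 CPM (1.31-fold), a spread as small as that of Klf2 (SD of log2 CPM 0.20). Klf11, which is close to Klf10 in function and not among the 9, had 39.9, 43.5 and 19.3 CPM and was lowest where Klf10 was highest. The genes lie on chromosome 7, 63886351 to 63938915 (Klf13, ENSMUSG00000052040.10), chromosome 19, 23141226 to 23168134 (Klf9, ENSMUSG00000033863.2), chromosome 15, 38291463 to 38300706 (Klf10, ENSMUSG00000037465.10) and chromosome 10, 80567124 to 80577321 (Klf16, ENSMUSG00000035397.8). The 9 members therefore sit on 9 chromosomes.

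A neighbour shared the high value of Klf13 in tumour 1. Gm27252, annotated as a processed transcript on the opposite strand with no exonic base in common with Klf13, had 204, 1 and 3 counts. It was singled out after its values were seen.

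Across the 9 members, 4 (Klf3, Klf4, Klf9 and Klf13) differed at least 2-fold between the highest and lowest tumour, against 34.9% of genes passing the filter, and 3 (Klf3, Klf4 and Klf13) at least 4-fold, against 10.0%. The median fold was 1.75 for the members and 1.70 for all genes passing the filter, and the median SD of log2 CPM was 0.41 and 0.39. The biological coefficient of variation that edgeR estimated per gene had a median of 0.400 in the members and 0.397 in all genes, and was 0.815 for Klf4 and 0.303 for Klf6. Tumour 1 was lowest for 5 members (34.3%), tumour 2 for 2 (30.6%) and tumour 3 for 2 (35.2%). Tumour 3 was highest for 5 members (33.4% of genes passing the filter), tumour 1 for 2 (35.8%) and tumour 2 for 2 (30.8%). Klf3, Klf4, Klf7 and Klf10 shared a pattern with tumour 1 lowest and tumour 3 highest, which 19.2% of genes passing the filter also had. That grouping was made after the values were seen. The summed T cell, neutrophil, NK cell, and endothelial and stromal genes were also lowest in tumour 1 and highest in tumour 3. Past 2-fold and highest in tumour 3 were 2 members (11.5% of genes passing the filter), in tumour 1 it was 1 (13.1%) and in tumour 2 it was 1 (10.4%).

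**Figure D2:**
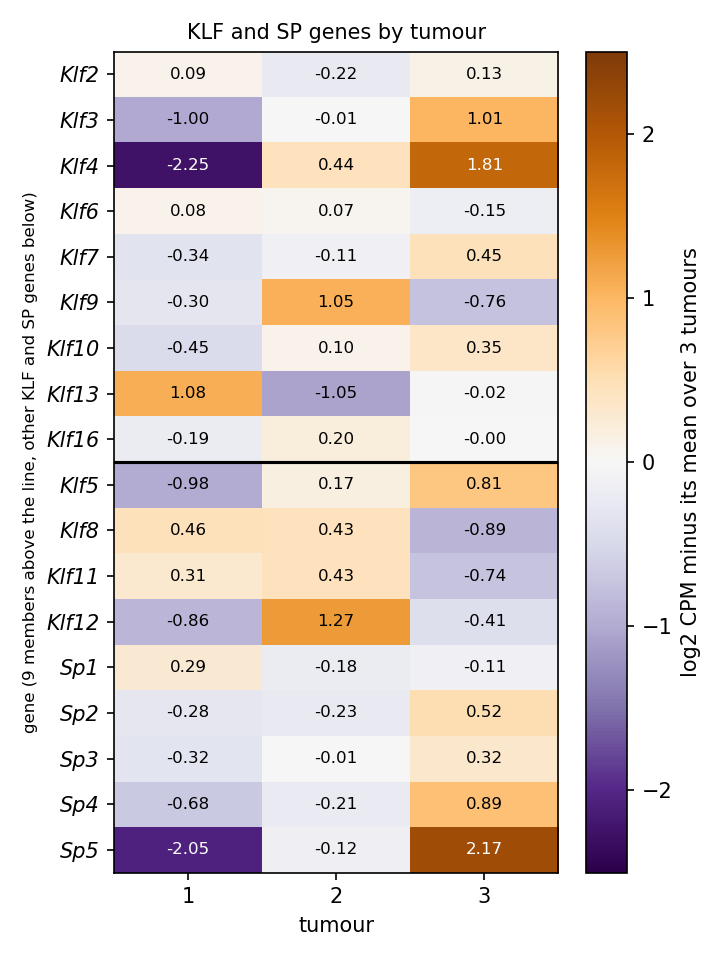
Log2 CPM minus its mean over 3 tumours for the 9 Krüppel-like factors (above the line) and the 9 other KLF and SP genes that passed the filter (below it), with 1 column per tumour. Klf4 lies at -2.25 in tumour 1 and 1.81 in tumour 3, Klf13 is high in tumour 1 (1.08), Klf9 is high in tumour 2 (1.05), and Klf2 and Klf6 stay within 0.22 of their means.

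**Figure D3:**
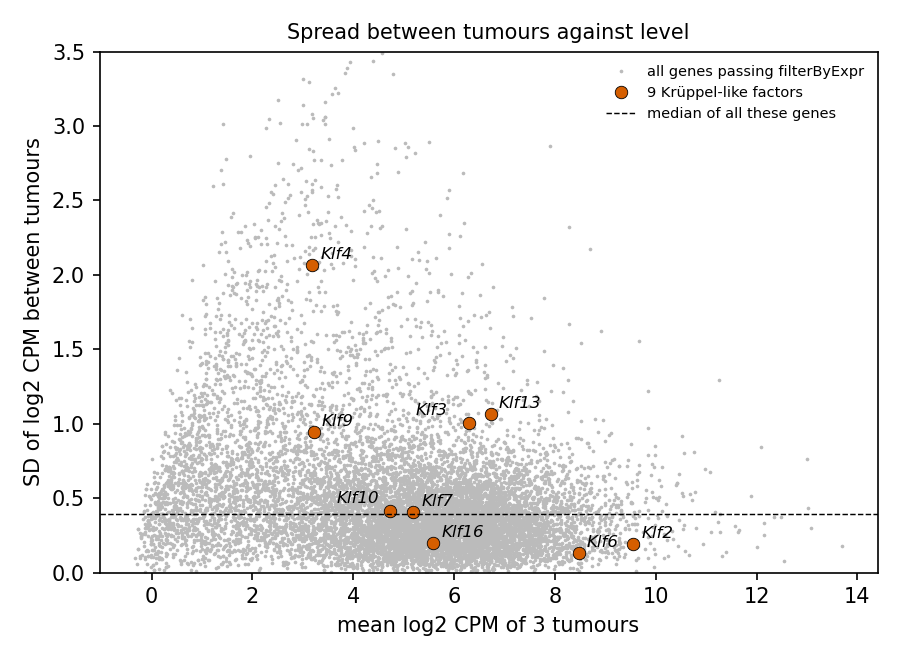
SD of log2 CPM between tumours against mean log2 CPM for genes passing filterByExpr (grey, 22 genes above the axis not drawn) and the 9 Krüppel-like factors (orange), with a dashed line at the median SD of all these genes. Klf2 and Klf6 combine high levels with low spread, Klf7 and Klf10 lie close to the median of 0.39, and Klf4, Klf13, Klf3 and Klf9 lie above it.

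The order of levels was compared per length, as RPKM over the union of GENCODE exons. From high to low it was Klf2, Klf6, Klf16 (18 ± 2.45 RPKM), Klf13 (16.7 ± 11.7), Klf3 (8.20 ± 5.42), Klf10 (6.50 ± 1.75), Klf7 (4.58 ± 1.35), Klf4 (5.0 ± 5.0) and Klf9 (2.21 ± 1.54), ranked by mean log2 RPKM. Of 8 neighbouring pairs, 3 kept their order in every tumour by more than the SD of their difference. These were Klf2 over Klf6 (a log2 difference of 2.34 ± 0.29), Klf6 over Klf16 (2.17 ± 0.24) and Klf10 over Klf7 (0.51 ± 0.18). The other 5 pairs did not differ beyond their spread. Klf13, for example, was above Klf3 by 3.07 on the log2 scale in tumour 1 and below it by 0.04 and 0.03 in tumours 2 and 3 (differences of -0.04 and -0.03). No p-value is given for these pairs, since a two-sided exact sign-flip test over 3 tumours cannot go below p = 0.25. Klf3 depends on the length used, with 17.6 RPKM by its longest transcript, because its annotated isoforms span more exon sequence than any single one.

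The 9 members held most of the family's reads. They made up 96.4%, 93.8% and 97.2% of the counts on 17 KLF genes in tumours 1, 2 and 3. Of the KLFs outside the 9, Klf11 averaged 34.2 CPM, Klf12 13.1 CPM, Klf5 9.32 CPM and Klf8 5.91 CPM. Klf1, the erythroid factor, averaged 0.187 CPM, and Klf14, Klf15 and Klf17 had no count, where 3 counts would be 0.169 to 0.199 CPM. Klf18 is not listed in the tables. Of the related SP genes, Sp3 averaged 36.2 RPKM, between Klf6 and Klf16, while Sp1 (19.9 RPKM) and Sp2 (19.0 RPKM) averaged slightly more than Klf16. Sp5 had 1.59, 6.44 and 32 CPM in tumours 1, 2 and 3, a 20.1-fold difference with the same tumours low and high as for Klf4, and Sp4 had 14.4, 20.0 and 43.0 CPM. Sp6, Sp7 and Sp9 had at most 3 counts in any tumour and Sp8 none.

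**Figure D4:**
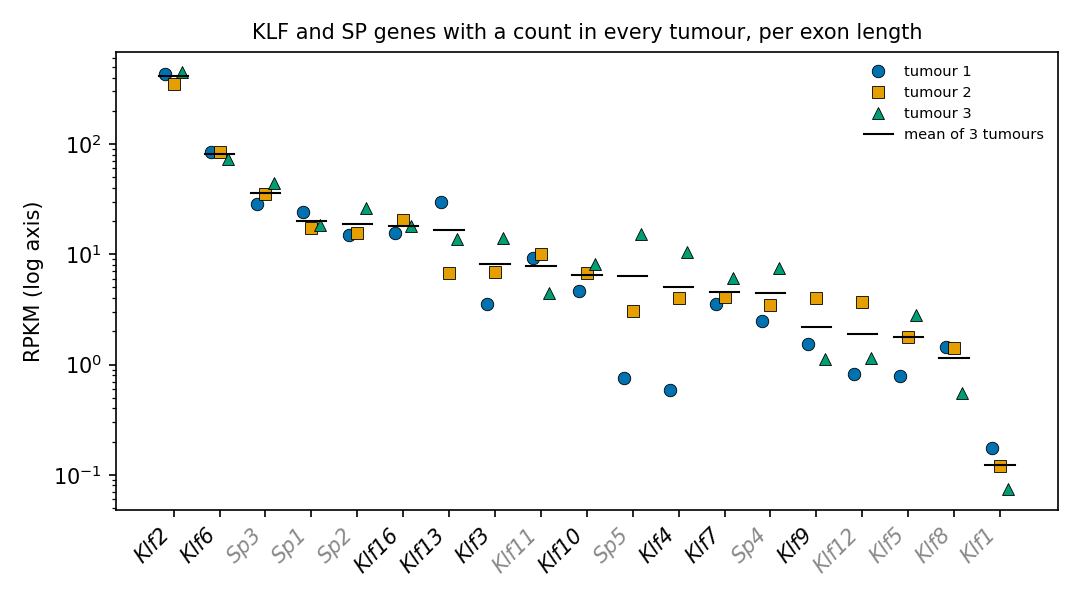
RPKM on a log axis for KLF and SP genes with a count in every tumour, ordered by mean RPKM, with 1 point per tumour and a black bar at the mean; the 9 members are named in black and other genes in grey. Klf2 (410 RPKM) and Klf6 (80.9 RPKM) stand above all other genes drawn, followed by Sp3 (36.2 RPKM).

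Genes of lymphocyte migration that KLF2 is known to act on, mostly from work in mouse T cells, varied between the lymphomas more than Klf2. So did Cr2 and Fcer2a, B cell subset markers on the same list of 8 genes. Most genes did, since only 17.1% of genes passing the filter had a lower SD of log2 CPM than Klf2. Of these 8, 7 differed at least 2-fold between tumours (34.9% of genes passing the filter). Cr2 (33.5-fold) and Fcer2a (8.13-fold) had the largest folds. The count was 2 without tumour 1, 6 without tumour 2 and 5 without tumour 3, against 19.5%, 22.2% and 19.7% of genes passing the filter. Cxcr5, the receptor that leads B cells to follicles, had 136, 290 and 433 CPM in tumours 1, 2 and 3. Itgb7, an integrin subunit of gut homing, had 194, 178 and 377 CPM. Both were highest in tumour 3, in which Klf2 had 824 CPM, against 800 CPM in tumour 1. S1pr1, the exit receptor and best known KLF2 target, named here after its values were seen, had 79.0, 247 and 280 CPM. Cr2, a marker that is high in marginal zone B cells, had 8.55, 150 and 286 CPM, and Fcer2a, a follicular B cell marker, had 3.78, 30.7 and 22.9 CPM, both lowest in tumour 1. The remaining genes reported from the list went the other way: Ccr7, the receptor for lymph node entry, had 190, 91.8 and 73.0 CPM and Cd69, an antagonist of S1pr1, had 187, 115 and 131 CPM, both highest in tumour 1 and named after their values were seen. The summed T cell genes were also highest in tumour 3, and S1pr1 is expressed by T cells.

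**Figure D5:**
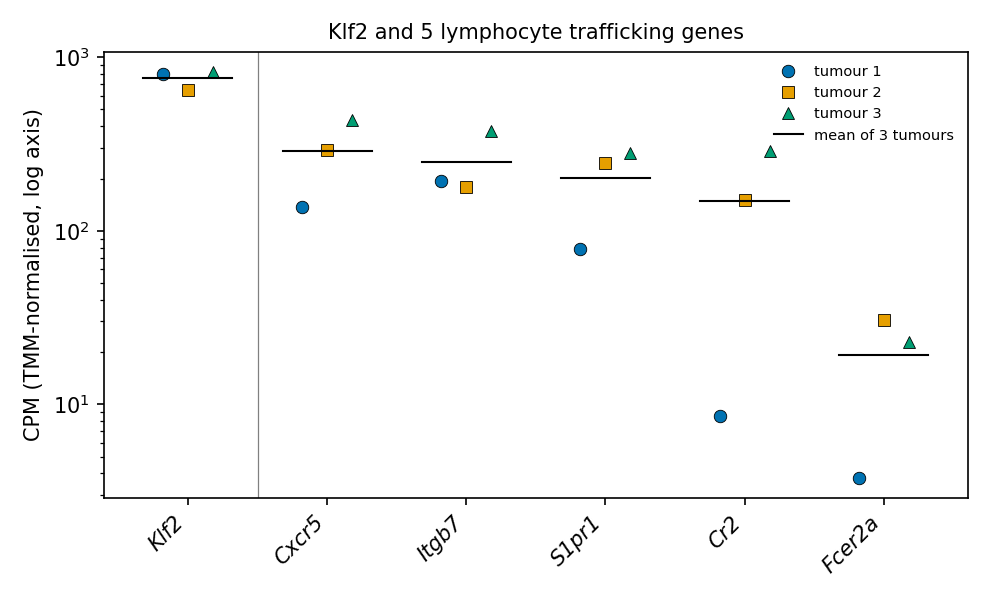
TMM-normalised CPM on a log axis for Klf2 (left of the line) and 5 genes named in the text, ordered by mean level, with 1 point per tumour and a black bar at the mean. Cxcr5, Itgb7 and S1pr1 are migration genes, and Cr2 and Fcer2a are B cell subset markers. Ccr7 and Cd69, which were highest in tumour 1, are not drawn. Klf2 spans 646 to 824 CPM, while Cr2 spans 8.55 to 286 CPM and S1pr1 79.0 to 280 CPM.

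Growth-restraint genes were expressed alongside the KLFs. Of 16 quiescence genes, 13 reached 10 CPM in each of the tumours (30.3% of genes with a count and 68.5% of genes passing the filter). Past 2-fold were 11 of them, against 34.9% of genes passing the filter, and 4, 7 and 4 without tumours 1, 2 and 3 (19.5%, 22.2% and 19.7%). Btg1, an antiproliferative gene, had 457, 304 and 224 CPM, and Foxp1, a factor of mature B cells, had 191, 385 and 333 CPM. Cdkn2c, a CDK4/6 inhibitor, had 42.2, 7.91 and 33.4 CPM, lowest in tumour 2 as Klf13 was, and Cdkn1c averaged 0.0376 CPM. The proliferation genes were active in the same libraries, with Mki67 at 1034, 480 and 997 CPM, Top2a at 643, 328 and 926 CPM and Mcm6 at 349, 230 and 350 CPM. Tumour 2 was lowest for 12 of the 14 genes on that list, against 30.6% of genes passing the filter. Among the 9 members, Klf2 and Klf13 were lowest in tumour 2 (30.6% of genes passing the filter). Klf9 and Klf16 were highest there (30.8%). A link of these levels with the proliferation genes was not tested.

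Known inducers of Klf2 were also read. All 8 genes of the ERK5 and MEF2 list reached 10 CPM in each tumour, against 30.3% of genes with a count and 68.5% of genes passing the filter, and Mef2d led with 495, 366 and 459 CPM, followed by Mef2c (173, 192 and 107 CPM) and Mef2a (171, 113 and 99.4 CPM). Mef2b had 157, 24.0 and 33.1 CPM, highest in tumour 1. Mapk7, which encodes ERK5 and was added after its values were seen, had 32.8, 44.8 and 61.0 CPM.

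Of 8 corepressor genes, 6 reached 10 CPM in each tumour (68.5% of genes passing the filter). Past 2-fold was 1, Hdac2 (named after its values were seen), against 34.9% of genes passing the filter. Its 2.10-fold difference fell below 2-fold with total counts, without tumour 1 or without tumour 3. Sin3a had 141, 104 and 136 CPM and Hdac3 181, 94.6 and 97.7 CPM. All 4 coactivator genes reached 10 CPM and 0 of 4 reached 2-fold (Ep300 327 ± 35.2 CPM, Kat2a 183 ± 43.0 CPM and Crebbp 99.3 ± 20.9 CPM). Of the ubiquitin ligases that act on KLF proteins, Itch averaged 98.9 ± 18.2 CPM, Fbxw7 52.9 ± 12.2 CPM and Wwp1, which targets KLF2, 22.9 ± 4.14 CPM. The other 2 of these 5 ligase genes passed 2-fold, against 34.9% of genes passing the filter (0 of 5 without tumour 1 or tumour 2, and 2 without tumour 3): Smurf1 had 8.68, 21.3 and 16.6 CPM, and Siah1a had 16.5, 6.19 and 10.1 CPM. Both were named after their values were seen.

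Genes of the signals that induce Klf9 and Klf10 were also read. Of 7 glucocorticoid receptor and responsive genes, 4 were at least 2-fold apart and highest in tumour 1, against 13.1% of genes passing the filter. Nr3c1, the receptor, had 438, 152 and 128 CPM, Per1 501, 181 and 126 CPM, Tsc22d3 300, 136 and 178 CPM and Fkbp5 257, 24.5 and 72.1 CPM. Sgk1 (1.33, 4.54 and 8.85 CPM) and Dusp1 (111, 162 and 186 CPM) were instead lowest in tumour 1 and highest in tumour 3. Both were named after their values were seen. Klf9 was not highest in tumour 1, whereas Klf6 and Klf13 were, as were 35.8% of genes passing the filter. A link with the glucocorticoid genes was not tested. Zbtb16 averaged 0.0564 CPM. Without tumour 1, the number of these genes past 2-fold was 1 (19.5% of genes passing the filter), against 5 in all 3 tumours (34.9%). In the TGF-β list, 6 of 10 genes passed 2-fold, against 34.9% of genes passing the filter. Without tumours 1, 2 and 3 it was 4, 4 and 2, against 19.5%, 22.2% and 19.7%. Tgfb1 had 344, 395 and 293 CPM, Tgif1 230, 309 and 112 CPM and Ski 197, 115 and 127 CPM. Tgfbr1, the type I receptor, had 1.46, 1.78 and 16.7 CPM, with tumour 3 high as for Klf10.

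Klf4, Klf6 and Klf10 are themselves known as early response genes in several cell types. Of 16 immediate early genes, 11 passed 2-fold, against 34.9% of genes passing the filter. Without tumours 1, 2 and 3 it was 8, 6 and 6, against 19.5%, 22.2% and 19.7%. Fosb had 1096, 1044 and 2163 CPM, Fos 201, 107 and 712 CPM and Egr1 138, 234 and 717 CPM. Each was highest in tumour 3, as Klf4 and Klf10 were, whereas Klf6 was lowest there (374, 372 and 319 CPM). Jun had 135, 1158 and 712 CPM and Atf3 93.8, 422 and 49.9 CPM, both highest in tumour 2 as Klf9 was, and Myc (712, 995 and 646 CPM) shared that. Nr4a1 was highest in tumour 1, at 234, 48.2 and 111 CPM. Jund, named after its values were seen, varied least of the list (1.08-fold), less than Klf6 (1.17-fold) and Klf2 (1.28-fold).

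For the 3 members of largest spread, the genes nearest in pattern were taken as those with the smallest root mean square distance of centred log2 CPM over 3 tumours, among 8420 genes with a mean of at least 10 CPM. Nearest to Klf4 were Osbpl3 (2.45, 16 and 41.9 CPM, distance 0.02), Rasgrp2 (10.3, 62.5 and 190 CPM) and Lgals3 (1.66, 14.2 and 33.4 CPM), and 12 genes lay within 0.25. Nearest to Klf13 were Adssl1, Ahdc1 and Ankle1, with 54 genes within 0.25, and nearest to Klf3 were Abtb2, Naip5 and Trim68, with 83. With 3 libraries many genes share a pattern by their number alone, so these names only describe.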

How the data were processed

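Libraries of sorted B220+GFP+ cells were polyA-selected and sequenced single-end on a DNBseq platform, per the labels. The authors deposited raw counts per gene. The submitters' processing notes name FastQC, STAR 2.5.2b, featureCounts 1.6.0 and mm10. Neither the strand setting nor the annotation release is given in the sources used here.

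Counts were scaled by TMM factors (edgeR 4.0.16, R 4.3.3) computed over genes passing filterByExpr and applied to total counts. Log2 CPM used a prior count of 2. Folds between tumours set counts under 3 to 3. Lengths and coordinates came from GENCODE M21 (mm10), to which 37536 of 37646 identifiers matched. Counting intervals are exact 95% Poisson or Wilson intervals and cover counting error only. With 1 group there is no contrast and no p-value for any gene. DESeq2 1.42.0 size factors served as an alternative. Tables were handled in Python 3.11.15 with pandas 2.3.3 and NumPy 2.4.6, intervals came from SciPy 1.17.1, and plots from matplotlib 3.10.9. The scaling, filter, fold and dispersion steps were run on simulated counts. These were simulated with a smaller coefficient of variation than the common value in these data (0.445). The other steps were not tested in this way.

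The members and gene lists were chosen with earlier results of these data known. Named were all KLF and SP genes, and of each other list the 3 members of highest mean CPM, those at least 4-fold apart with 10 CPM in some tumour, and those under a mean of 1 CPM; of marker lists, the 3 highest and those with no count.
Some genes that this rule selects are not reported here, though counts over their lists include them.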

Additional observations from a re-analysis of the deposited data

How the results depend on the processing

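With 3 libraries, limits come from the number of tumours more than from depth, since only Klf4 in tumour 1 and Klf9 in tumour 3 had fewer than 100 counts. The median level of the members, 48.2 CPM, ran between 45.1 and 52.2 CPM with DESeq2 size factors, total counts, a library size without immunoglobulin and mitochondrial genes, or 1 tumour left out. The median SD of log2 CPM, 0.41, ran between 0.38 and 0.59 over these settings, a prior count of 0.5 and no filter. Without tumours 1, 2 and 3 it was 0.39, 0.59 and 0.38, against 0.31, 0.36 and 0.32 over all genes passing the filter. With no filter it was 0.39, against 0.50 over all genes with a count, so the comparison with all genes depends on the setting. Members at 10 CPM or more in every tumour numbered 7 (30.3% of genes with a count). With thresholds of 5 and 20 CPM they numbered 8 and 6 (34.2% and 24.9%). Without tumours 1, 2 and 3 they numbered 8, 7 and 7 (31.9%, 31.1% and 31.1%). Members past 2-fold numbered 4 (34.9% of genes passing the filter), and 4, 3 and 3 without tumours 1, 2 and 3 (19.5%, 22.2% and 19.7%). They numbered 6 at 1.5-fold (64.3%) and 4 at 3-fold (15.2%). Neighbouring pairs separate in level numbered 3, and 2 to 4 without 1 tumour, by CPM or by the longest transcript. Over the 11 pathway lists, 61 genes passed 2-fold, and between 32 and 35 when 1 tumour was left out, while the share over all genes passing the filter was 34.9% with all tumours and 19.5% to 22.2% with 1 left out. A range over 2 libraries can only be smaller than over 3, apart from small shifts in scaling and in the genes passing the filter. No paired analysis was possible because the labels give 1 group and no shared replicate numbers.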
